A study of Mus musculus with 4 samples.

Results

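The genes described here are 9 factors of formative pluripotency, measured in mouse embryonic stem (ES) cells in which Fmr1 was knocked down. They are Fgf5, Pou3f1, Otx2, Zic2, Zic5, Foxd3, Lef1, Sox3 and Sall2. They were found as the features of the deposited ratio table whose single gene symbol in the platform annotation was one of these names. All 9 were measured, by 20 of the 45214 features of the array, and they are 9 of 19083 named genes. Otx2 had 10 features and Lef1 had 3, while the other 7 genes had 1 feature each. Each array compared 2 populations of ES cells. The shFmr1 cells carried a lentiviral short hairpin RNA against exon 1 of Fmr1, the gene of the RNA-binding protein FMRP, and the shCT cells carried a hairpin of random sequence. Both populations also expressed GFP from the virus, were sorted by flow cytometry and were kept as mixed, non-clonal cultures. The labels name 1 hairpin against Fmr1 and no ES cell line. The 4 dual-colour arrays are numbered as replicates 1 to 4, with shFmr1 RNA in Cy5 on replicates 1 and 3 and in Cy3 on replicates 2 and 4. The labels leave unsaid whether the replicates were separate cultures, so the p-values rest on a spread that may be technical.

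Naive ES cells resemble the epiblast before implantation. On their way to forming germ layers they pass through a formative state, in which FGF and ERK signalling is active, naive factors are switched off and a set of new factors is switched on. Fgf5 is the FGF ligand long used as the marker of the early post-implantation epiblast. Otx2, a homeodomain protein, and Pou3f1 (also called Oct6), a POU protein, act in that transition, and Otx2 redirects the core factor Pou5f1 to new enhancers. Zic2 and Zic5 are zinc finger proteins, Foxd3 a forkhead repressor and activator, Sox3 an HMG-box protein closely related to Sox2, Lef1 the HMG-box partner of beta-catenin in Wnt signalling, and Sall2 a zinc finger protein. Several of them, Sox3, Zic2, Otx2 and Pou3f1 among them, are also used later in the neural plate.

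A pair of promoters is shown because their genes carry the main patterns below, the ligand Fgf5 for the lowest mean ratio and Otx2 for differences between arrays that its 10 features share. Each is the stretch of 250 bases before a transcription start in RefSeq's table for build GRCm38.p6. Capitals mark matches to the letters searched.
Fgf5, chr5:98253934-98254183, plus strand: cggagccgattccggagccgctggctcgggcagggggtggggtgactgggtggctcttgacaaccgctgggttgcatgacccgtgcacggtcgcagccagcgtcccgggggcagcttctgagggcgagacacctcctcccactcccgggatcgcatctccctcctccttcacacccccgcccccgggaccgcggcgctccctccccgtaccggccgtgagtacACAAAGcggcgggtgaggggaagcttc
Otx2, chr14:48665110-48665359, minus strand: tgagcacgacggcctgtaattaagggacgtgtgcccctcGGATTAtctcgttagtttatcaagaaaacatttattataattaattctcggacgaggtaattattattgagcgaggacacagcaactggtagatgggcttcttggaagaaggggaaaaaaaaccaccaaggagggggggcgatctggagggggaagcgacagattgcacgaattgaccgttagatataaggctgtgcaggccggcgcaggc

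The search covered letters typical of sites for these protein families, on both strands. They were TAATCC for OTX, CTTTGA for LEF1 and TCF, ACAAAG for SOX, ATGCAAAT for POU, CCTGCTG for ZIC and GTAAACA for forkhead proteins. The SOX and the LEF1 and TCF letters both hold CAAAG in 1 reading direction, and no match of one overlapped a match of the other in the stretches of these genes. The capitals in the Fgf5 stretch are a SOX match and those in the Otx2 stretch an OTX match on the opposite strand, in 1 of 4 listed Otx2 starts. SOX letters occur in 16.5% of the 32851 stretches in the table and OTX letters in 6.25%. Of the 9 genes 6 had an entry, with 13 stretches in all. In these, SOX letters were found in 2, ZIC letters in 2 (8.44% of all stretches; the same letters in 2 overlapping stretches of Lef1), LEF1 and TCF letters in 1 (13.8%), and POU and forkhead letters in 0 (1.6% and 3.17%). A match is a description of the letters and not evidence of binding.

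The values are log ratios of shFmr1 over shCT, read as log2, so that a negative value is lower in shFmr1 cells. The log base and the direction are not stated in the sources used here. The targeted gene was below 0 on every array although the dyes alternate, with Fmr1 at -0.86, -1.65, -1.34 and -1.61 on replicates 1 to 4, which makes shFmr1 over shCT the likely direction. Fmr1 is then no independent check of it. Read as natural logs, each ratio would be larger in size, for Fgf5 -1.09 in place of -0.75. The table holds no channel intensities, so it cannot be said whether a gene was above background. With ratios from mixed populations, fewer cells expressing a gene and less RNA per cell cannot be told apart.

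Across the 9 genes, Fgf5 and Pou3f1 had the lowest mean ratios, and the other 7 lay between -0.19 and 0.10. None passed limma's test at an adjusted p of 0.05, where 0% of all 19083 genes did. The targeted gene Fmr1 had a mean of -1.37 over 2 features, which averaged -1.81 and -0.93. It ranked number 2 by p and did not pass either (limma adjusted p = 0.156). Failing to pass is therefore no evidence that a gene was unchanged. At an unadjusted limma p under 0.05 the count was 2 of 9, both lower in shFmr1 cells, beside 3.77% of all genes in either direction with 2.05% toward lower and 1.71% toward higher levels. With a trended, robust variance model the count was 0 of 9. Without intensities, that model's trend ran over the mean ratio itself, so it is no independent check of genes with extreme ratios. Of the 9 genes 6 had a mean below 0, against 50.5% of all genes, and their median was -0.08, against -0.0013 for all genes. Fgf5, Zic5 and Sox3 were below 0 on all 4 arrays (3 of 9, beside 5.88% of all genes), and 0 of the 9 were above 0 on all 4 (5.37% of all genes). Sox3 on replicate 1 (-0.01) and Zic5 on replicates 2 and 3 (-0.01 and -0.02) were only just below 0. The genes were chosen with such values known, so these counts describe them and test nothing.

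**Figure D1:**
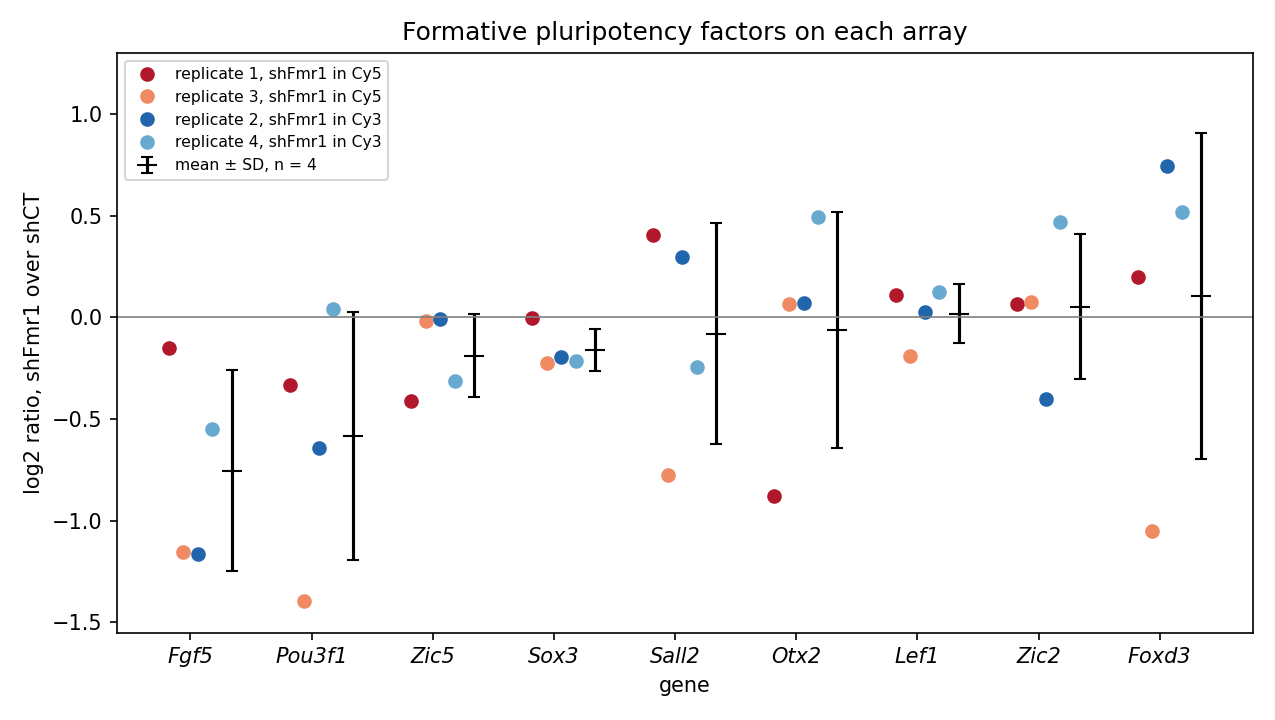
Log2 ratio of shFmr1 over shCT (y axis) for each of the 9 genes (x axis, ordered by mean). Points are the 4 arrays, red shades for shFmr1 in Cy5 and blue shades for shFmr1 in Cy3, and bars are mean ± SD (n = 4). The 4 points of Fgf5 lie below 0, from -1.17 to -0.15, while Foxd3 spans -1.05 to 0.74.

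The ligand Fgf5 read -0.15, -1.17, -1.15 and -0.55 on replicates 1 to 4. It was below 0 on each array and least so on replicate 1, and low values came in both dye orientations. Among all genes on the same array it stood at percentile 25.2 on replicate 1, 0.0917 on replicate 2, 0.736 on replicate 3 and 2.29 on replicate 4. Its mean of -0.75 ± 0.49 (SD, n = 4) corresponds to 59.3% of the shCT level, with a 95% confidence interval from 43.0% to 81.8%. Fgf5 ranked number 89 by p among all genes, with an unadjusted limma p under 0.05, and did not pass after adjustment (limma adjusted p = 0.973). The dye coefficient of the same fit was 0.10 (limma adjusted p = 0.901). Its 1 feature gives no second reading.

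The POU factor Pou3f1 read -0.33, -0.64, -1.40 and 0.04 on replicates 1 to 4. It was below 0 on 3 arrays, lowest on replicate 3, and at about 0 on replicate 4. The mean was -0.58 ± 0.61 (SD, n = 4), or 66.8% of the shCT level (95% confidence interval 47.4% to 94.0%, limma adjusted p = 0.973). The mean rests in part on replicate 3, without which it was -0.32 with the dye term and -0.31 without it. With 1 array left out, the unadjusted p stayed under 0.05 in 4 of 8 fits for Pou3f1, and not without replicate 2 or 3, and in 8 of 8 for Fgf5. Neither gene kept an unadjusted p under 0.05 with trend and robust variance, where the variance trend ran over the mean ratio itself. With shFmr1 in Cy5 the 2 arrays averaged -0.87, and with shFmr1 in Cy3 they averaged -0.30. The dye coefficient was -0.28 (limma adjusted p = 0.764).

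Otx2 is the gene whose ratio is best measured within an array, since 10 features carry its accession. On replicate 1 all 10 were below 0, from -1.28 to -0.50, with a mean of -0.88 ± 0.25 (SD over the 10 features). On replicate 4 all 10 were above 0, from 0.32 to 0.78, with a mean of 0.50 ± 0.15. On replicates 2 and 3 the features lay on both sides of 0, with 7 of 10 above it on each array and means of 0.07 ± 0.26 and 0.07 ± 0.18. By their means, replicates 1 and 4 thus stood on opposite sides of the others, and the features of these arrays did not overlap each other. The features of replicate 2 reached 0.51 and so overlapped those of replicate 4. The annotation does not say whether the 10 features share a probe sequence.

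The 4 array means of Otx2 averaged -0.06 ± 0.58 (SD, n = 4), and the 95% confidence interval of 71.7% to 128% of the shCT level covers no change (limma adjusted p = 0.988). The spread between arrays was 2.70 times the spread between features within an array, which was 0.22. On this array 132 accessions had 10 features. Over them the median SD was 0.25 between features and 0.13 between arrays, and Otx2 had the highest SD between arrays of the 132. The next was Anxa8, an annexin gene, at 0.55, followed at 0.49 by Nes, whose product nestin is a filament protein of neural progenitors. Among all genes the SD of Otx2 stood at percentile 96.1, and Foxd3 (0.80) and Pou3f1 (0.61) had a higher SD. For 2 of the 132 accessions, Otx2 included, all 10 features were below 0 on replicate 1 and above 0 on replicate 4. The dye coefficient of Otx2 was -0.34 (limma adjusted p = 0.731), and replicates 1 and 3, which share an orientation, differed.

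**Figure D2:**
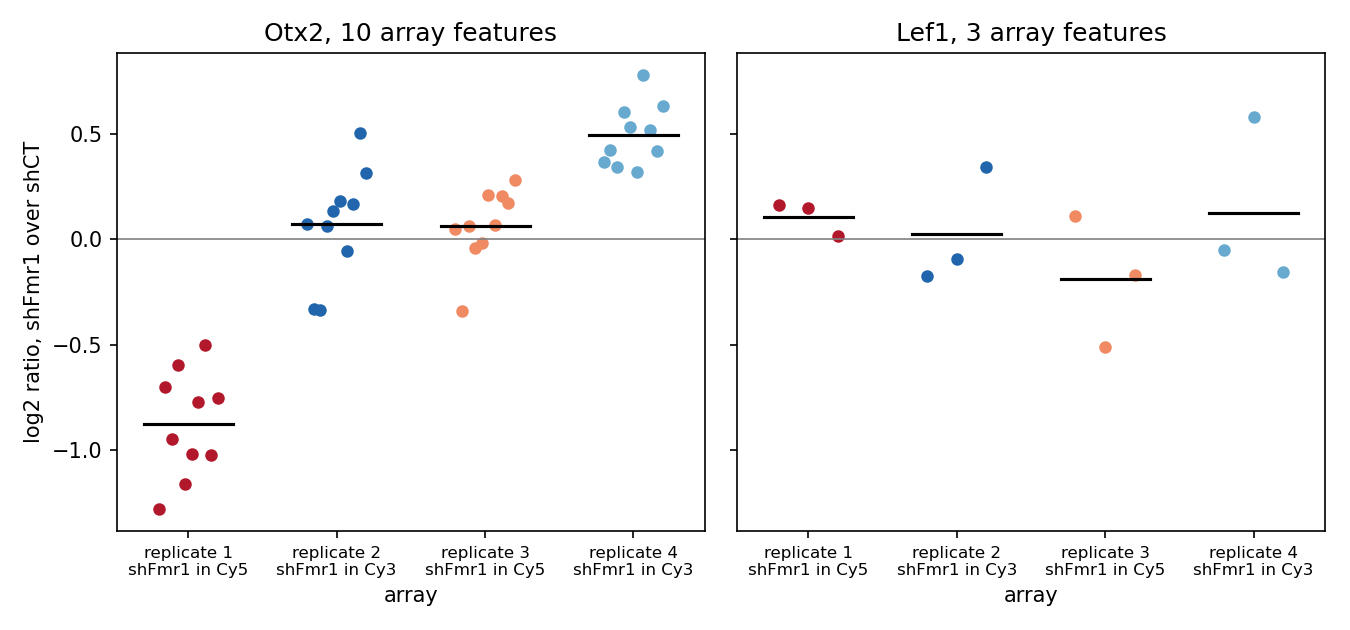
Log2 ratio of shFmr1 over shCT (y axis) of each array feature of Otx2 (left, 10 features) and Lef1 (right, 3 features) on the 4 arrays (x axis). Lines are the means of the features on an array. The Otx2 features of replicate 1 (-1.28 to -0.50) and replicate 4 (0.32 to 0.78) do not overlap.

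**Figure D3:**
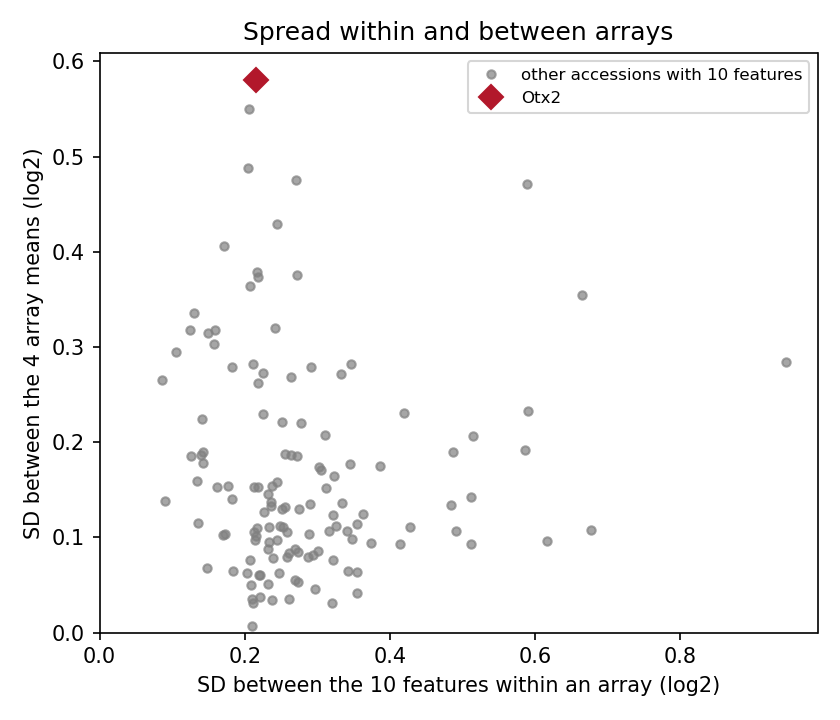
Each point is 1 of 132 accessions with 10 features, with the SD between those features within an array (x axis, pooled over arrays) and the SD between the 4 array means (y axis), both in log2 units. Otx2, the diamond, has the highest value on the y axis at 0.58 and 0.22 on the x axis.

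Zic2 and Zic5 are neighbouring genes on mouse chromosome 14, and their ratios did not run in parallel. Zic2 read 0.07, -0.40, 0.07 and 0.47 on replicates 1 to 4, and Zic5 read -0.41, -0.01, -0.02 and -0.31. Zic2 was lowest on replicate 2 and highest on replicate 4, whereas Zic5 was near 0 on replicates 2 and 3 and lower on the others. The mean of Zic2 was 0.05 ± 0.36 (SD, n = 4, limma adjusted p = 0.988) and that of Zic5 -0.19 ± 0.20 (adjusted p = 0.973). The 95% confidence interval of Zic5 ran from 72.9% to 106% of the shCT level, and its ratio was -0.09 without replicate 1 and -0.11 without replicate 4, dye term included.

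The forkhead gene Foxd3 read 0.20, 0.74, -1.05 and 0.52 on replicates 1 to 4. Replicate 3 was far below the others, at percentile 0.909 of all genes on that array, while replicate 2 was at percentile 98.9. The mean of 0.10 ± 0.80 (SD, n = 4) had the largest SD of the 9 genes, higher than that of 98.0% of all genes, and did not pass the test (limma adjusted p = 0.982). Foxd3 was the only one of the 9 with an unadjusted p under 0.05 for the dye coefficient (coefficient -0.53, limma adjusted p = 0.730), beside 6.49% of all genes. Its mean was -0.43 with shFmr1 in Cy5 and 0.63 with shFmr1 in Cy3, and the 2 arrays in Cy5 differed in sign. Without replicate 3, the 1 array on which Foxd3 was below 0, its ratio was 0.42, and without replicate 1 it was -0.21, dye term included.

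The HMG-box gene Sox3 read -0.01, -0.19, -0.22 and -0.21 on replicates 1 to 4. Replicates 2 to 4 lay within a narrow range and replicate 1 was at about 0. The mean of -0.16 ± 0.10 (SD, n = 4) corresponds to 89.6% of the shCT level (95% confidence interval 77.1% to 104%, limma adjusted p = 0.973). Without replicate 3 its ratio was -0.10. Sox3 had the smallest SD between arrays among the 9 genes.

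Lef1 read 0.11, 0.03, -0.19 and 0.13 on replicates 1 to 4 as the mean of 3 features from 3 accessions. Its mean was 0.02 ± 0.14 (SD, n = 4, limma adjusted p = 0.995), and the 95% confidence interval of 86.3% to 119% of the shCT level covers no change. The features differed among themselves within arrays, and 1 of them, with accession AK083328, read -0.51 on replicate 3 and 0.58 on replicate 4. Sall2 read 0.40, 0.30, -0.78 and -0.25, with positive values on replicates 1 and 2 and negative ones on replicates 3 and 4. Its mean was -0.08 ± 0.54 (SD, n = 4, adjusted p = 0.988).

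On replicate 3, 7 of the 9 genes were below 0, where 47.7% of all genes were. The counts were 5 on replicate 1, 5 on replicate 2 and 4 on replicate 4, where 50.3%, 50.7% and 52.5% of all genes were below 0. Pou3f1, Foxd3, Sall2, Lef1 and Sox3 each had their lowest ratio on replicate 3, Otx2 and Zic5 on replicate 1, and Fgf5 and Zic2 on replicate 2. The median of the 9 was -0.01, -0.01, -0.22 and 0.04 on replicates 1 to 4.

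Of 11 measured genes of formative and primed pluripotency outside the 9, 4 had an unadjusted p under 0.05, all lower, beside 2.05% of all genes. After adjustment over all genes 0 passed. The median was -0.06, and 1 of the 11 was below 0 on all 4 arrays, beside 5.88% of all genes. The kinase gene Pim2 read -0.22, -1.01, -1.79 and -0.53 (mean -0.89 ± 0.69 (SD, n = 4)), below 0 on every array. Fgf8, another FGF ligand, read 0.06, -0.78, -0.42 and -0.42, and like Fgf5 was nearest to 0 on replicate 1. Dnmt3b and Dnmt3l, genes of the DNA methyltransferase family, were low only with shFmr1 in Cy5. Dnmt3b read -0.76, 0.08, -1.27 and 0.33, and Dnmt3l -0.93, 0.19, -0.76 and 0.17.

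Among 12 naive pluripotency factors the median was 0.00, with 0 lower and 1 higher at an unadjusted p under 0.05, the homeobox gene Nanog (0.48, 0.13, 0.96 and -0.25 on replicates 1 to 4). Of all genes, 2.05% were lower and 1.71% higher at that level. Nanog averaged 0.72 with shFmr1 in Cy5 and -0.06 with shFmr1 in Cy3. The 7 core pluripotency genes had a median of 0.09, with 1 higher at that level, the RNA-binding protein gene Lin28a (mean 0.26, adjusted p = 0.973). On replicate 3, where the median of the genes described here was lowest (-0.22), the naive list had its highest median, 0.21. Its medians were -0.13, -0.05 and 0.02 on replicates 1, 2 and 4. Both lists held values on both sides of 0 on replicate 3. Otx2 and Zic2 each read 0.07, and naive factors ran from -0.55 (Gbx2) to 0.96 (Nanog). A link between the lists was not tested.

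Paralogs of the 9 genes lay on both sides of 0. Of 21 measured, 8 had a mean below 0, beside 50.5% of all genes. The 2 with an unadjusted p under 0.05, beside 3.77% of all genes, were Fgf8 (mean -0.39) and the zinc finger gene Sall3 (mean 0.21). The POU gene Pou3f2 averaged 0.22 and Sox2, a close relative of Sox3, 0.16, neither with an unadjusted p under 0.05. Among 11 FGF receptors and response genes, the immediate early gene Egr1 was the 1 gene with an unadjusted p under 0.05, at -0.61, -0.56, -0.44 and -0.74 on replicates 1 to 4 (limma adjusted p = 0.973). Of the FGF receptors, Fgfr1 averaged -0.06, Fgfr2 0.05, Fgfr3 -0.26 and Fgfr4 -0.04, and the ETS factors Etv4 and Etv5 averaged -0.11 and 0.00. Among 9 Wnt and LEF1 targets only the zinc finger gene Sp5 reached that level, at -0.14, -0.44, -0.45 and -0.67. The median of these 9 was -0.05. Among 6 primitive streak genes only the ligand gene Wnt3 did, at -0.21, -0.34, -0.47 and -0.73, and their median was 0.01. The share of all genes at that level, 3.77%, stands beside each of these counts.

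Markers of other cell types that such cultures can hold also moved between arrays. The 12 endoderm markers had medians of -0.55, -0.04, -0.43 and -0.15 on replicates 1 to 4. Of the 12, 11 had a mean below 0, against 50.5% of all genes. At an unadjusted limma p under 0.05, 7 were lower, beside 2.05% of all genes. Cubn (mean -1.01), Sparc (-0.51), Col4a1 (-0.39) and Amn (-0.34) were among them. With shFmr1 in Cy5 and in Cy3, Cubn averaged -1.70 and -0.33, Sparc -0.91 and -0.12, and Col4a1 -0.70 and -0.08. Amn was alike in both orientations, at -0.33 and -0.35. The 10 early neural genes had medians of 0.12, 0.05, -0.21 and 0.12, with 0 at an unadjusted p under 0.05. The lowest p among them belonged to Nes (-0.01, -0.09, -1.01 and -0.72) and Pou3f2. The 7 fibroblast markers had medians of 0.69, 0.28, 0.03 and -0.19. Of these 7, 1 was at that level, the matrix gene Postn (mean 0.22), beside 3.77% of all genes in either direction. The part of these cells in the ratios of the 9 genes was not tested.

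**Figure D4:**
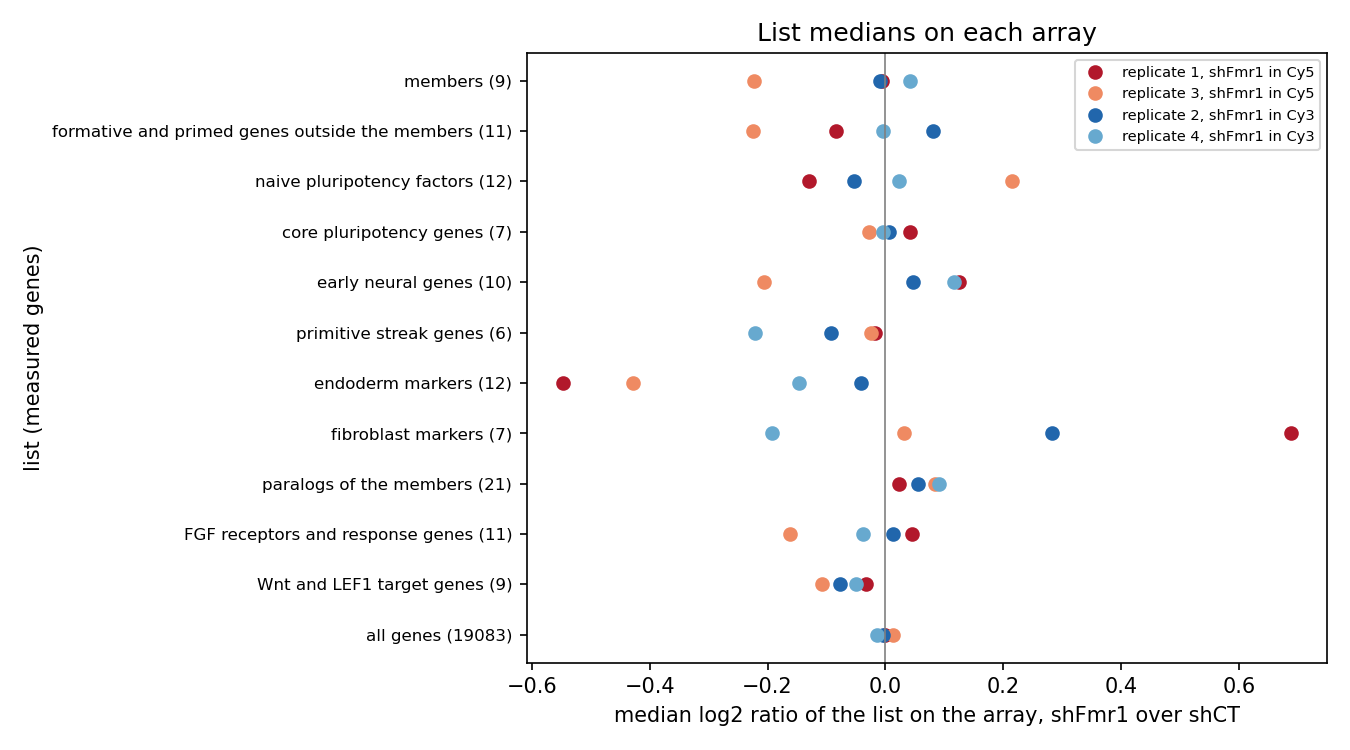
Median log2 ratio of shFmr1 over shCT (x axis) of each gene list on each of the 4 arrays (points, coloured as in the plot of single genes), with the number of measured genes in brackets. The 9 formative factors have their lowest median on replicate 3 (-0.22), and the endoderm markers on replicate 1 (-0.55).

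The genes with ratios closest to those of Fgf5 over the 4 arrays, by root mean square difference, were the immunoproteasome subunit gene Psmb8 (0.31), Pim2 (0.33) and the splicing factor gene Prpf19 (0.34). For Pou3f1 they were Glmn (0.22), 2610005M20Rik (0.22) and Prpf19 (0.23). This likeness was measured over 4 arrays and 19083 genes, and it is given without a test.

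**Figure D5:**
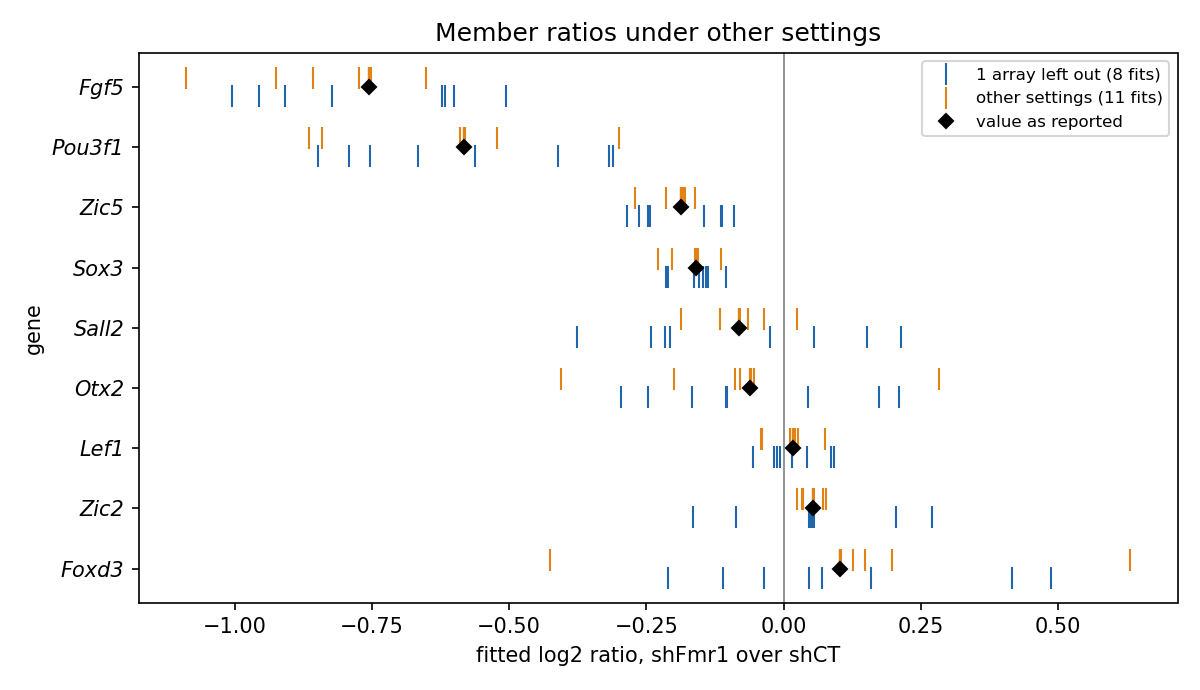
Fitted log2 ratio of shFmr1 over shCT (x axis) of the 9 genes (y axis) as reported (diamonds), with 1 array left out (blue ticks, 8 fits) and under the other settings (orange ticks, 11 fits). The ticks of Fgf5, Pou3f1, Zic5 and Sox3 all lie below 0, and those of the other 5 genes lie on both sides of it except for Zic2 under the other settings.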

How the data were processed

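RNA of shFmr1 and shCT ES cells, 0.2 µg per channel at an RNA integrity number of 9, was hybridised to 4 Agilent arrays, per the labels. The authors deposited 1 centred log ratio per feature and array, taken as log2; array medians lay between -0.02 and 0.02 and array SDs between 0.32 and 0.41. The sources used here do not give the normalization, the software, the log base or the direction. No intensities were analysed, so depth and background are unknown, and the number of arrays limits the precision. Over all genes the ratios of different arrays hardly correlated. The correlation r was 0.063 and 0.044 for the pairs that share a dye orientation, and -0.053 to -0.023 for the other pairs.

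Of 45214 features, 33649 had 1 gene symbol in a 2016 platform annotation; 56 with several and 11509 with none were left out. Symbols were checked by gene identifier against RefSeq, and 0 differed. Features were averaged per gene (10740 of 19083 genes had 1). Genes were fitted in 1 model with a dye term by limma 3.58.1 (lmFit, eBayes) under R 4.3.3, and p-values were adjusted by Benjamini-Hochberg over all genes, threshold 0.05. The fit was tested on simulated data with set changes larger than the mean ratio of any member, which leaves smaller changes untested. List genes are named by p within their list, at most 4 with an unadjusted p under 0.05, otherwise the 2 lowest. For members under that level the 3 nearest profiles are named. Fgfr1 to Fgfr4, Etv4, Etv5, Sox2, Anxa8 and, among the genes with 10 features, Nes were named after their values were seen. The members and lists were chosen with earlier results of these data known. Alternatives covered the dye term, centring, scaling, quantile normalization, feature summaries, the variance model, the log base, dye orientations and each array left out.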

Additional observations from a re-analysis of the deposited data

Results flagged for a closer look

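Of 42 results examined, the named genes and the list medians, 1 had an array that stood apart under Dixon's criterion for 4 samples, where chance gives about 1 in 20, or 2.1. It was Sox3, with -0.0053 on replicate 1 and -0.22 to -0.19 on the other arrays.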

How the results depend on the processing

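At an adjusted p of 0.05, 0 of the 9 genes passed under any setting run, single features included. Among all genes, 2 passed with quantile normalization, 0 to 87 with 1 array left out and the dye term in the fit (87 without replicate 2, 25 without replicate 1, 10 without replicate 3), and 0 in the other settings, including each array left out with no dye term. The median of the 9 was -0.21 with shFmr1 in Cy5 alone and 0.0248 with shFmr1 in Cy3 alone, and ran from -0.21 to -0.10 with 1 array left out. Fgf5, Pou3f1, Zic5 and Sox3 kept their direction in the 13 fits whose setting could move the estimate of a gene with 1 feature, which leaves out the natural-log reading. In the fits with the dye term on 3 of the 4 arrays, Fgf5 ran from -1.004 to -0.50, Pou3f1 from -0.85 to -0.32, Zic5 from -0.29 to -0.0899 and Sox3 from -0.21 to -0.10. The lowest adjusted p was 0.259 for Fgf5 and 0.426 for Pou3f1, both without replicate 1. With trend and robust variance, where the trend ran over the mean ratio itself, both had an unadjusted p above 0.05. Other genes turned sign with arrays left out: with the dye term kept, Otx2 ran from -0.30 to 0.17, Zic2 from -0.16 to 0.27, Foxd3 from -0.21 to 0.42, Lef1 from -0.0566 to 0.0922, and Sall2 from -0.38 to 0.21. With no dye term, Otx2 read 0.21 and Lef1 -0.0126 without replicate 1, Foxd3 -0.11 without replicate 2, and Sall2 0.15 without replicate 3. Zic2 read -0.0859, Foxd3 -0.0357 and Lef1 -0.0182 without replicate 4. Lef1 read -0.0404 with the median over its features and -0.0400 with shFmr1 in Cy5 alone, where Foxd3 read -0.43. With shFmr1 in Cy3 alone Otx2 read 0.28 and Sall2 0.0248. In these sign changes the cause was not tested. Each ratio is a difference within 1 array, so the fits are already paired by replicate number, and no further block was added.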
